A study of Mus musculus with 10 samples.

Results

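Mvk, Fdft1, Nsdhl, Ebp and Dhcr7, 5 enzymes of cholesterol synthesis, were followed in mouse testis after injection of TSA (trichostatin A), an inhibitor of histone deacetylases. They were chosen by gene symbol in the platform table, which gave 5 probes, 1 for each enzyme, out of 9897 probes with a value for 8738 genes. The animals were male BALB/c mice, 9 weeks old, and the labels name no genetic change. The control group of 3 mice received only the carrier, dimethyl sulfoxide in PBS, and was killed at 10 h. The 4 TSA groups, of 3 mice each, received 60 µg per mouse by subcutaneous injection, with killing after 2.5, 5, 7.5 or 10 h. The RNA of the 3 mice was combined, so that a group was 1 pool (n = 1), read on 2 technical CodeLink arrays of 1 channel. The spread between animals is therefore unknown, and the tests use the spread between pools. The hour of killing matched that of the control in the 10 h pool and not in the other 3 TSA pools.

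Cholesterol is built in the endoplasmic reticulum and the cytosol from acetyl-CoA through mevalonate, squalene and lanosterol. Mevalonate kinase (Mvk) phosphorylates mevalonate early in the route, and squalene synthase (Fdft1) joins farnesyl diphosphate into squalene, the first step given over to sterols. Nsdhl takes part in the removal of methyl groups from the sterol ring, Ebp shifts a double bond within the ring, and Dhcr7 makes the last reduction to cholesterol. In the testis, Leydig cells use cholesterol to make testosterone, and germ cells hold sterol intermediates that promote meiosis in oocytes and are found in testis and semen. Most enzymes of the route are known targets of SREBP2, a transcription factor released from the endoplasmic reticulum when membrane cholesterol falls.

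Values are the deposited normalised intensities, which are linear and have a median of 1.00 on each array. The 2 arrays of a pool had an r of 0.9946 to 0.9982 over the 7422 tested probes. All 5 enzymes passed the filter on dim probes, which removed probes with a mean intensity under 0.207. Within the tested probes Mvk stood at the 13.5th percentile of brightness and the other 4 between the 51.4th and the 78.4th. Testis markers were present: of the fixed spermatid list 13 of 20 genes were measured and of the Leydig cell list 8 of 12, and none of these had a pool mean under the filter limit. The 5 h pool stood apart. The summed intensity of 24 measured genes of 32 on a list of liver transcripts was 243 on both of its arrays, against 32.6 to 39.5 on the other 8 arrays. Results of the 5 enzymes are therefore also given without it. Since whole testis was read, fewer cells of a type and less RNA per cell cannot be told apart.

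Promoter sequences of the enzymes are shown because Mvk and Nsdhl lay below the control in all TSA pools while Dhcr7 lay above it, and the letters let these promoters be set side by side. RefSeq windows (build GRCm38.p6, 250 bases before to 50 after a start site) were found for 4 of the 5 enzymes, all but Fdft1. Capitals mark matches on either strand to 5 motifs. The sterol regulatory element was searched as TCACNCCAC, and the E-box as CACGTG. The box of that name was searched as CCAAT. The GC box was searched as GGGCGG. The core of the cAMP response element was searched as TGACG. No matches overlapped in the windows shown. The windows are chr5:114444019-114444318 on the plus strand for Mvk, chrX:72918271-72918570 on the plus strand for Nsdhl, chrX:8193463-8193762 on the minus strand for Ebp, and chr7:143829964-143830263 on the plus strand for Dhcr7.
Mvk: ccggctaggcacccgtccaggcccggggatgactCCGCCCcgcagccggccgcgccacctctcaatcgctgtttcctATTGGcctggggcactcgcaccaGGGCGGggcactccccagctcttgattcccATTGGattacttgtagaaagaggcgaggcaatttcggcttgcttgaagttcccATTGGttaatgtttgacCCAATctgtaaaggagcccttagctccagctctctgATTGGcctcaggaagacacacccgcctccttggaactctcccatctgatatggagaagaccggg
Nsdhl: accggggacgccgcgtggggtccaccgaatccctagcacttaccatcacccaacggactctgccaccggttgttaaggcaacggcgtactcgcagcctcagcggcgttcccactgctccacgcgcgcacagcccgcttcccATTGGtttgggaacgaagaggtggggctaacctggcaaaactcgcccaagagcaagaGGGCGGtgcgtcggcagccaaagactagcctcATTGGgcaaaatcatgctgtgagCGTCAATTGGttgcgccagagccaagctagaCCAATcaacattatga
Ebp: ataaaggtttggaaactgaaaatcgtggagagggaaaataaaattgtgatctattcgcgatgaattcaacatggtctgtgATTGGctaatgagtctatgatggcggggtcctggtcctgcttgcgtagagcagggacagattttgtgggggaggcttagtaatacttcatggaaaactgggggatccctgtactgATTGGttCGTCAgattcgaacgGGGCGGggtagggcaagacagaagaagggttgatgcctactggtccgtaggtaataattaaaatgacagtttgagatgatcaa
Dhcr7: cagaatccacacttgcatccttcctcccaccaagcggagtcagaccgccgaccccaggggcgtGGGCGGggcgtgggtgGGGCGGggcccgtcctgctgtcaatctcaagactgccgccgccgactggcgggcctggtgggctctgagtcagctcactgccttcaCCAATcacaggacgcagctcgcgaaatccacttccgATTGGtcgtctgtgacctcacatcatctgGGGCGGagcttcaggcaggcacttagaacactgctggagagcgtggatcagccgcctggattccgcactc
The Mvk window held 5 CCAAT boxes and 2 GC boxes. The Nsdhl window held 4 CCAAT boxes, 1 GC box and 1 cAMP response core, and the Ebp window held 2, 1 and 1 of them. The Dhcr7 window shown held 2 CCAAT boxes and 3 GC boxes. It is 1 of 3 RefSeq windows for this gene, picked because it held the most matches, and the others held 1 GC box and 1 E-box. At least 2 CCAAT boxes and a GC box stood in each of the Mvk, Nsdhl and Ebp windows. Of 32851 windows of this length 11.7% held at least 2 CCAAT boxes and 35.7% a GC box. The share of windows with both was not counted, so the pair has no background here. The Dhcr7 window shown held both as well, but it was picked by its matches, and the other Dhcr7 windows held no CCAAT box. TCACNCCAC had no match in these windows and one in 1.24% of all. Only this form of the sterol regulatory element was searched, so other forms, or sites outside the windows, would be missed. CACGTG stood in 7.15% and TGACG in 20.8% of all windows. These matches are a description of the letters. That Dhcr7, above the control, shared them with Mvk and Nsdhl, below it, rests on the window picked for Dhcr7.

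Mvk had a lower pool mean at each step from the control to 10 h after TSA. Its intensity was 0.567 and 0.601 on the control arrays, 0.419 and 0.432 at 2.5 h, and 0.454 and 0.377 at 5 h. It was 0.356 and 0.355 at 7.5 h and 0.296 and 0.321 at 10 h. All 8 TSA arrays were below both control arrays, and the arrays of the 7.5 h and 10 h pools were below those of the earlier pools, while those at 2.5 h and 5 h overlapped. In 5.01% of all tested probes, Mvk and Ebp among them, the pool mean was lower at every step from the control to 10 h. Against the control pool the log2 fold of Mvk was -0.46 ± 0.047 at 2.5 h, -0.50 ± 0.14 at 5 h, -0.72 ± 0.042 at 7.5 h and -0.92 ± 0.071 at 10 h (SE from the duplicate arrays). At 10 h the control was thus 1.89-fold above the TSA pool, a log2 fold at the 2.13th percentile of all tested probes. The mean of the TSA pools against the control was -0.65 ± 0.19, which did not pass (limma, adjusted p = 0.0951), and -0.70 without the 5 h pool (limma, adjusted p = 0.129). The size of these values depended on the log scale, since Mvk is dim. With 0.5 added before log2 the folds at the 4 times were -0.23, -0.24, -0.34 and -0.42, and the slope over hours was -0.0384.

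The linear trend over hours, with the control at 0 h, was fitted on the 5 pool means across all probes. Over the TSA pools, hours after TSA and the hour of killing cannot be told apart. The slope of Mvk, -0.084 ± 0.0153 log2 units per hour, passed the limit of 0.05 (limma, adjusted p = 0.0484), and it was the only one of the 5 enzymes to do so. In that test 2.01% of all tested probes passed, and 1.66% passed on the falling side. The call lay close to the limit. It ended when any of 8 of the 10 arrays was left out, and held without the first 2.5 h array or the second 10 h array (limma, adjusted p from 0.037 to 0.0686 over the 10). It also ended without any 1 of the 5 pools, and the slope without the 5 h pool was -0.084 (limma, adjusted p = 0.0851). For the other 4 enzymes the adjusted p of the slope without that pool ran from 0.228 to 0.513 (limma). Over the TSA pools alone the slope was -0.0645 (limma, adjusted p = 0.213). Between TSA pools, which does not use the control, Mvk was lower at 10 h than at 2.5 h by a log2 difference of -0.47 ± 0.061, and its arrays did not overlap. A lower, non-overlapping position at 10 h than at 2.5 h was held by 31.4% of all tested probes.

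**Figure D1:**
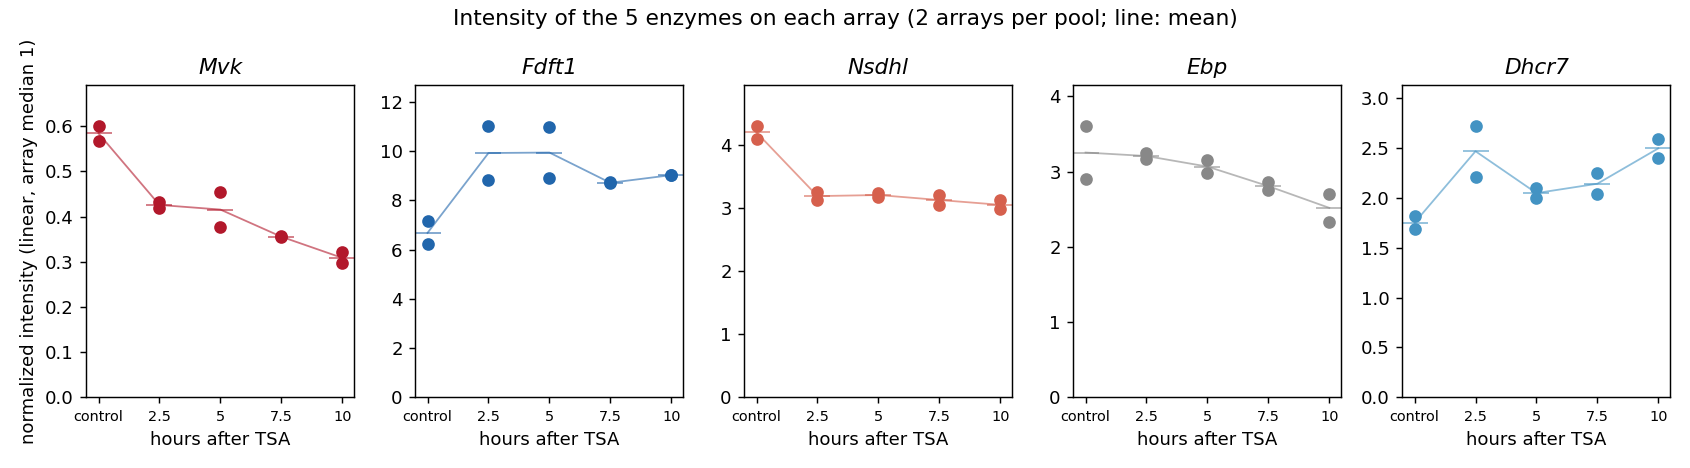
Normalised intensity (linear axes from 0, a separate scale for each gene) of the 5 enzymes on each of the 10 arrays, in the control pool and at 2.5, 5, 7.5 and 10 h after TSA. Points are arrays and the line joins the means of the 2 arrays of a pool. Mvk goes down from 0.584 to 0.309, Fdft1 and Dhcr7 lie above the control in all TSA pools, and Nsdhl lies below it.

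Fdft1 lay above the control at every time. The control arrays read 7.14 and 6.22, and the TSA arrays read 11.03 and 8.81 at 2.5 h, 10.99 and 8.89 at 5 h, 8.68 and 8.74 at 7.5 h, and 9.02 and 9.03 at 10 h. All 8 TSA arrays were above both control arrays. The pools at 5, 2.5 and 10 h overlapped with their neighbours in this order, the 7.5 h pool came next, and the control was lowest. The log2 folds were 0.57 ± 0.19, 0.57 ± 0.18, 0.39 ± 0.10 and 0.44 ± 0.10 at 2.5, 5, 7.5 and 10 h. The mean of the TSA pools was 1.4-fold the control, a log2 fold of 0.49 ± 0.12, which did not pass the test (limma, adjusted p = 0.0741). Without the 5 h pool it was 0.46 (limma, adjusted p = 0.141). Its slope over hours was 0.0279 ± 0.0232 (limma, adjusted p = 0.497), and -0.0226 over the TSA pools alone.

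Nsdhl, whose gene lies on chromosome X, stood at one lower level in all TSA pools. It read 4.30 and 4.08 on the control arrays, 3.12 and 3.25 at 2.5 h, 3.17 and 3.23 at 5 h, 3.04 and 3.21 at 7.5 h, and 2.97 and 3.12 at 10 h. All 8 TSA arrays were below both control arrays, and each TSA pool overlapped with its neighbour in the order 5, 2.5, 7.5 and 10 h. The log2 folds ran from -0.39 ± 0.039 at 5 h to -0.46 ± 0.051 at 10 h. Over the 4 TSA pools the log2 fold was -0.42 ± 0.11, the control being 1.34-fold higher, and did not pass (limma, adjusted p = 0.0743). Without the 5 h pool it was -0.43 (limma, adjusted p = 0.14). The slope was -0.0379 ± 0.0167 per hour (limma, adjusted p = 0.211).

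Ebp, also on chromosome X, differed least from the control. Its control arrays lay apart, at 3.61 and 2.90. The TSA arrays read 3.16 and 3.25 at 2.5 h, 2.98 and 3.15 at 5 h, 2.75 and 2.86 at 7.5 h, and 2.33 and 2.71 at 10 h. The first 2 TSA pools lay between the control arrays, and the last 2 lay below both. The log2 fold went from -0.01 ± 0.16 at 2.5 h and -0.08 ± 0.16 at 5 h to -0.20 ± 0.16 at 7.5 h and -0.36 ± 0.19 at 10 h. The mean log2 fold was -0.16 ± 0.16 (limma, adjusted p = 0.521) and the slope -0.0369 ± 0.0134 (limma, adjusted p = 0.153). Without the 5 h pool the mean log2 fold was -0.19 (limma, adjusted p = 0.524). It was -0.01 without the first control array and -0.32 without the second. Without the first the folds at the 4 times were 0.15, 0.08, -0.05 and -0.21, so that those at 2.5 and 5 h changed direction. Without the second they were -0.17, -0.24, -0.36 and -0.52. Without the control, Ebp was lower at 10 h than at 2.5 h by a log2 difference of -0.35 ± 0.11, with arrays that did not overlap. Such a position was held by 31.4% of all tested probes.

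Dhcr7, the last enzyme of the route, lay above the control at every time. The control arrays read 1.68 and 1.81, and the TSA arrays 2.72 and 2.21 at 2.5 h, 2.00 and 2.09 at 5 h, 2.25 and 2.03 at 7.5 h, and 2.40 and 2.59 at 10 h. All 8 TSA arrays were above both control arrays, and each TSA pool overlapped with its neighbour in the order 10, 2.5, 7.5 and 5 h. Its log2 folds were 0.49 ± 0.16, 0.23 ± 0.063, 0.29 ± 0.089 and 0.51 ± 0.076 at the 4 times. The mean log2 fold of 0.38 ± 0.15, or 1.3-fold, did not pass (limma, adjusted p = 0.156), and neither did the slope, 0.033 ± 0.0201 (limma, adjusted p = 0.345). Without the 5 h pool the mean log2 fold was 0.43 (limma, adjusted p = 0.17). Dhcr7 was lower at 5 h than at 2.5 h by a log2 difference of -0.26 ± 0.15, with arrays that did not overlap, as did 34% of all tested probes.

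**Figure D2:**
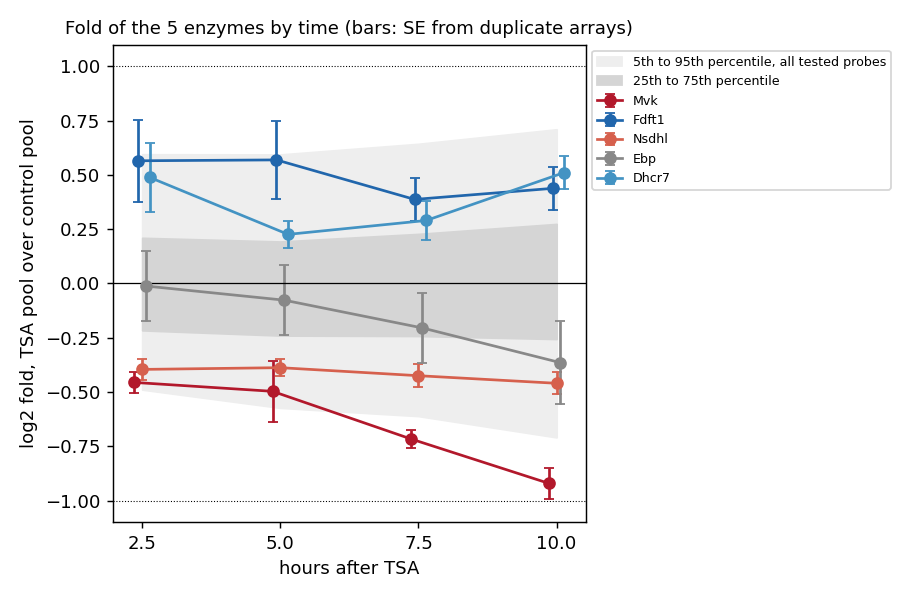
Log2 fold of each TSA pool over the control pool (vertical axis) at 2.5, 5, 7.5 and 10 h (horizontal axis) for the 5 enzymes, with bars for the SE from duplicate arrays and grey bands for the 5th to 95th and 25th to 75th percentiles of all 7422 tested probes. Mvk leaves the wider band at 7.5 and 10 h, where the band ends at -0.61 and -0.71. The dotted lines mark a 2-fold difference, which none of the 5 enzymes reached.

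In the comparison of the 4 TSA pools with the control pool, 0 of the 5 enzymes passed (limma, Benjamini-Hochberg adjusted p under 0.05), and 4 of them had an unadjusted p under 0.05, from 0.00611 to 0.0395. Of all tested probes 3.53% passed and 28.3% had an unadjusted p under 0.05. All 8 TSA arrays lay beyond both control arrays for 4 of the 5 enzymes, as for 45.2% of all tested probes. For 2 enzymes they lay above (22.2% of all tested probes) and for 2 below (23%). At 2.5 and 5 h the 2 arrays of the pool were clear of the control for 4 of the 5 enzymes, and at 7.5 and 10 h for 5 of 5. This held for 75.3%, 78.6%, 75.1% and 78.5% of all tested probes, so such positions were common. The lone control pool enters every one of these positions. With a size rule of at least 2-fold and both TSA arrays beyond both control arrays, 0 of the 5 enzymes were called at any time. The rule called 0.916%, 1.55%, 1.91% and 2.67% of all tested probes at 2.5, 5, 7.5 and 10 h. At a limit of 1.5-fold Mvk was called lower at 7.5 and 10 h. On that side 2.3%, 4.58%, 5.48% and 7.87% of all tested probes were called at the 4 times. With 2 enzymes above the control and 2 below, the median of the 5 was the value of Ebp at each time, and the median log2 fold of all tested probes was -0.02, -0.03, -0.01 and 0.01.

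Enzymes were also set against each other within an array. Such a ratio is free of a single scale factor per array, but not of quantile normalisation, which can act differently at different brightness. The log2 ratio of Fdft1 to Nsdhl was 0.61 and 0.73 on the control arrays and between 1.44 and 1.82 on the 8 TSA arrays. These ranges could not overlap, since Fdft1 lay above and Nsdhl below both control arrays on all 8 TSA arrays. The change of this ratio from the control was 0.96, 0.96, 0.81 and 0.90 at 2.5, 5, 7.5 and 10 h. The log2 ratio of Dhcr7 to Mvk changed by 0.94, 0.72, 1.00 and 1.43, and that of Fdft1 to Mvk by 1.02, 1.07, 1.10 and 1.36. The last and the first enzyme of the set thus stood farthest from their control ratio in the 10 h pool. These pairs were picked after the values were seen, are given without a test, and show unequal change only.

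Of 16 other enzymes from acetyl-CoA to cholesterol, 7 were measured, and 0 of these 7 passed either test (limma, adjusted p from 0.272 to 0.993 for TSA pools against control). Fdps, which makes farnesyl diphosphate, had log2 folds of 0.09, 0.07, 0.13 and 0.04 at 2.5, 5, 7.5 and 10 h, against 0.57, 0.57, 0.39 and 0.44 for Fdft1, the next enzyme. Sqle, the squalene epoxidase that follows Fdft1, had folds of -0.10, -0.21, -0.46 and -0.47, and its slope was -0.0517 ± 0.0134 (limma, adjusted p = 0.0909). Like Mvk it was dim, with intensities from 0.412 in the control to 0.298 at 10 h.

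The middle of the route held the enzymes of the sterol ring. Cyp51, the lanosterol demethylase with a form abundant in spermatids, stood at a mean log2 fold of 0.08 ± 0.14 and Tm7sf2, a sterol reductase, at 0.00 ± 0.12. Msmo1 and Hsd17b7, which act with Nsdhl in removing methyl groups, had mean log2 folds of -0.20 ± 0.17 and -0.35 ± 0.19, and Nsdhl one of -0.42 ± 0.11. At 10 h Hsd17b7 stood at -0.05 and Msmo1 at -0.35. Sc5d, the desaturase between Ebp and Dhcr7, had a mean log2 fold of 0.04 ± 0.14. The median of the 7 over the TSA pools was 0.002, against -0.018 for all tested probes. That of the 5 enzymes, -0.165, was the value of Ebp, which moved to -0.01 or -0.32 with 1 control array left out.

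**Figure D3:**
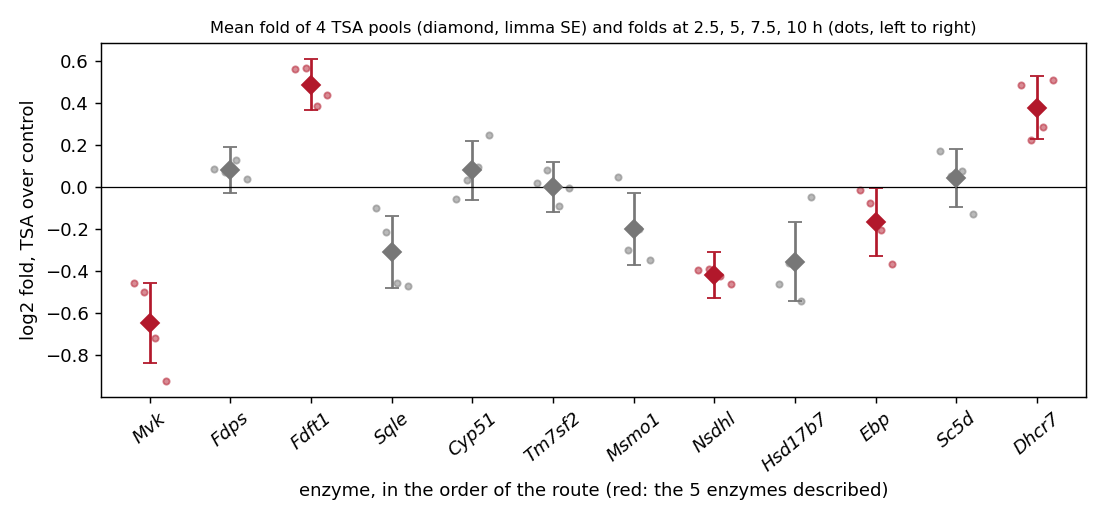
Log2 fold over the control (vertical axis) for the 12 measured enzymes, ordered along the route from mevalonate to cholesterol (horizontal axis). Diamonds are the mean of the 4 TSA pools with the limma SE, dots are the folds at 2.5, 5, 7.5 and 10 h from left to right, and red marks Mvk, Fdft1, Nsdhl, Ebp and Dhcr7. Mean folds run from -0.65 for Mvk to 0.49 for Fdft1, and neighbours in the route lie on both sides of 0.

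In the branch that uses farnesyl and geranylgeranyl diphosphate for other products, 8 of 13 genes were measured and 7 tested, and 0 passed either test. Ggps1, which makes geranylgeranyl diphosphate, had a mean log2 fold of -0.34 ± 0.12 (limma, adjusted p = 0.126). Fnta, a subunit of farnesyltransferase, stood at -0.26 ± 0.12, Nus1, a subunit of the enzyme that makes the chain of dolichol, at 0.27 ± 0.11, and Rabggtb, a subunit of Rab prenyltransferase, at 0.31 ± 0.15. Dhdds, the other subunit of the dolichol enzyme and a dim probe, stood at -0.60 ± 0.16, the largest fold of the 7 tested (limma, adjusted p = 0.0786). The list had a median of -0.19.

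The sensors of sterols were mostly too dim or unmeasured. Of 16 genes of sterol sensing and SREBP processing 4 were measured, and 1, Nr1h3 (the oxysterol receptor LXR alpha), was tested. Its mean log2 fold was 0.35 ± 0.18 (limma, adjusted p = 0.258). Srebf2, the gene of SREBP2, had intensities of 0.0648 to 0.128 over the pools and Srebf1 of 0.0278 to 0.0813, both under the filter limit, so no change can be read for them.

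Among 19 genes of cholesterol transport, storage and oxidation 14 were measured and 11 tested. Lipe, the hormone-sensitive lipase that frees stored cholesterol from its esters, fell with time (slope -0.185 ± 0.0148, limma, adjusted p = 0.0183). It was 1 of 11 to pass the trend, against 2.01% of all tested probes, and 0 of the 11 passed TSA pools against control. The trend passed 0 probes with no filter on dim probes or without the control, 2.5 h or 10 h pool, so this call and those of Tex101 and Siglec1, given with the markers, ended there as that of Mvk did. Its intensity was 0.964 in the control pool and 0.706, 0.503, 0.336 and 0.282 in the TSA pools. Scarb1, the receptor that takes up cholesterol esters from HDL, went from 4.80 in the control to 4.02, 4.05, 2.99 and 2.79, with a slope of -0.0793 ± 0.0152 that did not pass (limma, adjusted p = 0.0524). For Mvk the slope was -0.084. Apoe stood at 4.99 in the control and at 8.63, 10.1, 5.41 and 5.11 in the TSA pools. It is abundant in liver too, and the liver list was highest in the same 5 h pool. Apoe also stood above the control at 2.5 h. There the liver list summed to 37.4 to 39.5, against 33.2 to 33.5 on the control arrays. The part of liver transcripts in these Apoe values was not tested. Cyp27a1, a sterol hydroxylase, and Npc1, which moves cholesterol out of lysosomes, had mean log2 folds of 0.27 ± 0.13 and 0.14 ± 0.13.

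Fatty acid synthesis, the other group of genes under SREBP control, had 5 of 9 genes measured and tested, and 0 passed either test. Scd1, a desaturase, had log2 folds of 0.33, 0.58, 0.62 and 0.66 at the 4 times (slope 0.0645 ± 0.0164, limma, adjusted p = 0.0872). Me1, which makes NADPH, lay lower with a mean log2 fold of -0.42 ± 0.11 (limma, adjusted p = 0.0831). Acss2 and Scd2 stood at -0.23 ± 0.15 and -0.21 ± 0.13.

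The probes most like each enzyme over the 10 arrays (5 pools) were found by Pearson's r of log2 values, as a description in which all probes share the arrays. For Mvk these were Tatdn1 (r = 0.98) and Xpnpep1 (0.977), whose log2 folds at 10 h were -0.35 and -0.55 against -0.92 for Mvk. Nsdhl ran with 0610030E20Rik (0.985) and Ankrd40 (0.979), and Fdft1 with Ube2q1 (0.965) and Gcat (0.958). Dhcr7 was closest to Tubb6 (0.955) and Trpm7 (0.953), and Ebp to Psenen (0.95) and Ropn1l (0.941). Such likeness was common, since 230 other probes had r above 0.9 with Mvk and 240 with Nsdhl, against 31, 37 and 9 for Fdft1, Dhcr7 and Ebp. None of the 10 is another measured enzyme of the route.

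Markers of testis cell types were read in the same pools. For Leydig cells, which take up and make cholesterol, the 8 measured genes of 12 summed to 158 to 165 on the control arrays, 185 to 204 at 2.5 h, 169 to 170 at 5 h, 158 to 160 at 7.5 h and 181 to 185 at 10 h. In such sums the brightest genes weigh most, and Cyp17a1 alone read 86.0 in the control pool and 104 at 2.5 h. Dhcr7 was highest in the same pools as the Leydig cell sum, 2.5 h and 10 h. Cyp17a1, Hsd3b1, Hsd3b6 and Fdx1 of the list were highest in these pools too, and Star, Cyp11a1, Hsd17b3 and Tspo were not. The part of Leydig cells in the values of Dhcr7 was not tested. The 9 measured spermatocyte genes of 12 had a median mean log2 fold of -0.24. Of the 9, 8 lay below 0, as did 3867 of all 7422 tested probes. The list summed to 347 to 356 in the control and 346 to 356 at 2.5 h. Its sums were 333 to 334 at 5 h, 349 to 351 at 7.5 h and 321 to 325 at 10 h. Ldhc, the brightest gene of this list, alone read 195 in the control pool and 211 at 10 h. Tex101 of this list fell with time (slope -0.116 ± 0.0174, limma, adjusted p = 0.0387), as Mvk did, with the limits given for Lipe. The median slope of the list was -0.0446. Ldhc and Ccna1 had slopes above 0, at 0.0107 and 0.0109, and the rest of the list had slopes below 0. The part of spermatocytes in the fall of Mvk was not tested. The 13 measured spermatid genes of 20 summed to 927 to 961 in the control and 981 to 1033 at 10 h, and the 10 measured Sertoli cell genes of 13 to 45.9 to 50.7 and 49.4 to 50.8. The 9 measured genes of 12 of macrophages and leukocytes summed to 8.22 to 8.38 in the control and 6.09 to 6.89 over the TSA arrays. Siglec1 of this list, a macrophage receptor, rose with time (slope 0.0947 ± 0.0173, limma, adjusted p = 0.049), with the same limits and a control intensity of 0.184, under the filter limit. No marker of these lists was at 0. The 5 enzymes summed to 17.7 to 19.6 on the 5 h arrays and to 18.0 to 20.4 at 2.5 h, while the liver list was 243 and 37.4 to 39.5.

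**Figure D4:**
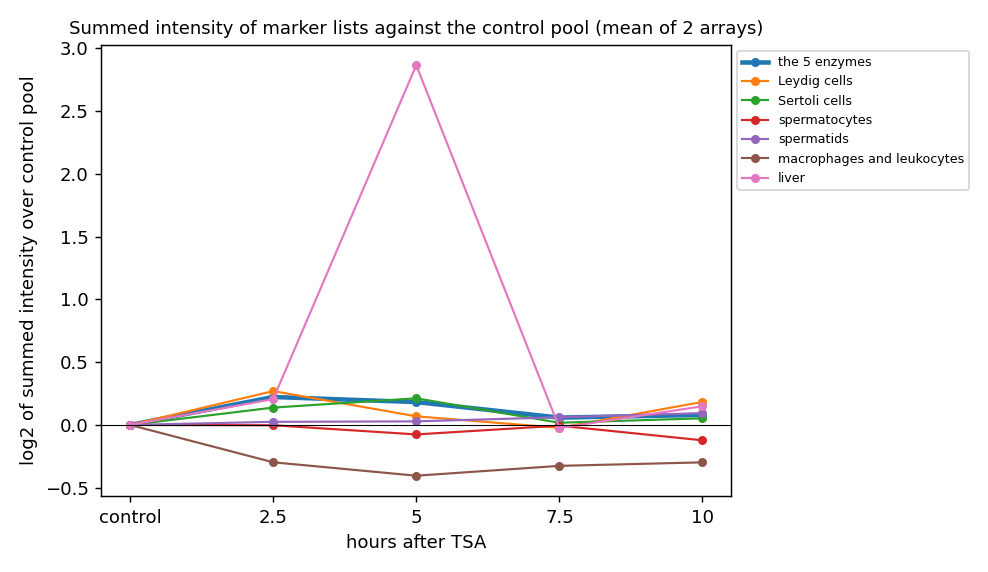
Log2 of the summed intensity of each list over that of the control pool (vertical axis, mean of 2 arrays) in the control pool and at 2.5, 5, 7.5 and 10 h after TSA (horizontal axis), for the 5 enzymes and 6 marker lists. The liver list stands far above the other lists at 5 h, at a sum of 243, where the 5 enzymes sum to 17.7 and 19.6 on the 2 arrays. The brightest genes of a list weigh most in its sum.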

How the data were processed

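The deposited values are normalised intensity of 10012 probes on 10 CodeLink arrays (Cy5), of which 115 had no value. Sorted intensity values were identical on all arrays (largest difference 0), as quantile normalisation leaves them, and no header states the authors' method. For the scanner software and the background correction, the program was not given in the sources used here. By the platform annotation, 8983 probes carried 1 symbol, 1 several and 1028 none. Values were floored at 0.0364 (the 5th percentile), turned to log2 and shifted to a common median, and the dimmest 25% were left out. The 2 arrays of a pool were averaged, and limma 3.58.1 in R 4.3.3 was fitted across all 7422 probes on the 5 pool means (3 residual degrees of freedom), for TSA pools against control and for a slope per hour, two-sided, with Benjamini-Hochberg adjustment. The lone control pool was taken to vary like the TSA pools. For arrays no counting depth applies, and their number limits the precision. The enzymes, gene lists and tests were chosen with earlier results of these data known. Named genes were the 5 enzymes, list genes that passed a test, up to 4 of largest mean fold per list above an intensity of 1.99, any other sterol enzyme, and the 2 probes most like each enzyme. Nr1h3, Dhdds, Srebf1, Srebf2, Tex101, Siglec1, Ldhc, Ccna1 and the named Leydig cell genes were added after their values were seen. Genes with several probes were read by the brightest. The fits were run on simulated data with planted changes larger than those of the 5 enzymes, so detection at the enzymes' sizes was not tested. Alternatives covered the filter, floor, offset (0.5), scaling, unit of replication and each array or pool left out. Deviations of same-numbered arrays correlated from -0.187 to 0.14 over 10 pairs of pools, so array numbers pair nothing. Figures used matplotlib 3.10.9 in Python 3.11.15.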

Additional observations from a re-analysis of the deposited data

How the results depend on the processing

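Without the shift of arrays and with quantile normalisation, the counts of probes and enzymes passing were those given. These settings could not change them, since the sorted values were already identical on all arrays, so nothing follows from this. The counts were also those given without the floor, but the floor lay below the filter limit, which makes this a weak check. TSA pools against control, with 262 probes and 0 enzymes passing (limma), gave 1 probe with no filter on dim probes and 13 with values centred on probes of like ID number. It gave 573 probes and 2 enzymes (Fdft1 and Nsdhl) with the lowest 50% left out, 428 and 2 (the same ones) with an offset before log2, 795 and 2 (again these) with eBayes trend and robust, and 1044 and 2 (Mvk and Nsdhl) with the pool as a random block. On the 10 arrays, which takes technical arrays for replicates, it gave 2660 probes and 4 enzymes without a block and 2388 and 4 with a replicate block, in each case all but Ebp. Arrays or pools left out gave 3 to 495 probes and 0 to 0 enzymes.

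The trend, with 149 probes and 1 enzyme (Mvk) passing, gave 0 and 0 with no filter. It gave 0 enzymes with the offset, with like-ID centring and with the lowest 50% left out, where Mvk itself was removed. It gave 289 probes and 0 enzymes with eBayes trend and robust, and 719 probes and 1 enzyme (Mvk) with the pool as a random block. On 10 arrays it gave 2353 and 3, and with the replicate block 2111 and 3. These 3 were Mvk, Nsdhl and Ebp. Arrays or pools left out gave 0 to 197 probes and 0 to 1 enzyme. The slope of Fdft1 turned to -0.0226 without the control pool and ran up to 0.0466 without the 10 h pool. The size rule, with 523 calls over the 4 times and 0 for the enzymes, gave 1586 with no filter, 153 with the lowest 50% left out, 116 with the offset, and 3389 with 2 for Mvk at 1.5-fold. Of 253 single-enzyme values under the alternatives of both tests, 1 changed direction. Settings of the filter, floor, shift, quantile normalisation, eBayes and unit of replication left each estimate as it was, so these could turn none. Among the folds at single times, those of Ebp at 2.5 and 5 h changed direction without the first control array. That at 2.5 h also did so without the first 2.5 h array, at 0.008. The cause of these differences was not tested, other than the removal of Mvk. The signal over local background, which limits dim probes most, was not analysed here.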
